A study of Mus musculus with 4 samples.

Results

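Loss of the zinc finger gene Zfp871 in mouse embryonic fibroblasts that kept Trp53 was examined by setting the Zfp871-/- RNA sequencing library against the wild-type (WT) library. The genes compared were those that reached 1 CPM, a count scaled to the size of its library, in WT, in Zfp871-/- or in both, and 13377 of the 54532 genes in the count table met this rule. The 2 libraries are part of 4, and the others, Trp53-/- and Trp53-/-; Zfp871-/- (the double null), serve below as a second background without Trp53. Each genotype was a single library, so a ratio compares libraries rather than genotypes, it has no replicate check, and no p-value is given. All 4 came from primary C57BL/6 fibroblasts of embryos at 12.5 to 13.5 days post-coitum, grown to passage 4. WT carries neither mutation, Zfp871-/- lacks Zfp871 with Trp53 intact, Trp53-/- lacks Trp53 with Zfp871 intact, and the double null lacks both. Zfp871-/- cells came from crosses among Zfp871 heterozygotes, whereas Trp53-/- and double-null cells came from crosses among animals heterozygous for both genes. WT cells could come from either cross. Which one gave the sequenced WT cells, how many embryos went into a culture and how the alleles were made could not be read from the labels.

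Zfp871 belongs to the large family of mammalian genes that encode proteins with arrays of C2H2 zinc fingers, many of which bind DNA and silence genes or repeats. The series title ties its loss to p53, the transcription factor that Trp53 encodes, and to Mdm2, the ubiquitin ligase that marks p53 for degradation and is itself induced by p53. In fibroblasts p53 slows the cell cycle through targets such as Cdkn1a. Cultures of embryonic fibroblasts are mixtures: they hold connective-tissue cells from many parts of the body, which keep a memory of their origin in their Hox genes, and can hold precursors of cartilage, bone and tendon, mesothelium and blood cells. In bulk RNA, fewer cells of a type and less RNA per cell cannot be told apart.

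The targeted gene was lower in both libraries labelled Zfp871-/-, but was not at 0. Of Zfp871 (chromosome 17, 32765496 to 32788287 in GRCm38/mm10, ENSMUSG00000024298), WT yielded 660 counts and Zfp871-/- 327, against 784 in Trp53-/- and 307 in double-null cells. The log2 ratio of Zfp871-/- to WT was -1.01 (95% counting interval -1.21 to -0.82), and that of the double null to Trp53-/- was -1.44 (-1.64 to -1.25). Both Zfp871-null libraries thus kept counts of the gene, and gene-level counts do not show which exons they came from. Intervals here and below are exact 95% intervals of the ratio of 2 counts. They hold counting error and nothing else: without replicate libraries, the variation between cultures is not in them. No molecular identifiers are recorded either, and a molecule may have been read more than once.

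The promoters of 4 genes are shown because the results turn on them: Zfp871 itself, Usp26, which was counted only where Zfp871 was lost, and Ambn and Odam, which were counted only where it was present. Each line is the RefSeq sequence (GRCm38.p6) of the 250 bases before the RefSeq start of the gene, 5′ to 3′ on the gene's strand, with CG dinucleotides in capitals. The windows are chr17:32788288-32788537 (minus strand) for Zfp871, chrX:51801234-51801483 (minus strand) for Usp26, chr5:88455741-88455990 (plus strand) for Ambn and chr5:87884760-87885009 (plus strand) for Odam, whose GENCODE start lies slightly downstream of the RefSeq one.
Zfp871: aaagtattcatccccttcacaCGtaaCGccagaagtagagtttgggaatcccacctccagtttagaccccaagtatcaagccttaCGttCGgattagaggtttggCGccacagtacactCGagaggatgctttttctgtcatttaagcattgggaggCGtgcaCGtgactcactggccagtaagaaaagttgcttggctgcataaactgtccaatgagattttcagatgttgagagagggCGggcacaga
Usp26: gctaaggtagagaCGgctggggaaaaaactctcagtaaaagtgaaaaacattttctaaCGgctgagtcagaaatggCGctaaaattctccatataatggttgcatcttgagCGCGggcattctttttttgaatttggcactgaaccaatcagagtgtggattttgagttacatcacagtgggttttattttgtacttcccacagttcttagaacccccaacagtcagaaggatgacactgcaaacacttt
Ambn: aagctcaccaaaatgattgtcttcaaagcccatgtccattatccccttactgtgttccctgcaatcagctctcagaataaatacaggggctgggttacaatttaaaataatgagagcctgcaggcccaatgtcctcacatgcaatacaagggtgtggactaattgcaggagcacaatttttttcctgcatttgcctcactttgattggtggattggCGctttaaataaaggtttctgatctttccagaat
Odam: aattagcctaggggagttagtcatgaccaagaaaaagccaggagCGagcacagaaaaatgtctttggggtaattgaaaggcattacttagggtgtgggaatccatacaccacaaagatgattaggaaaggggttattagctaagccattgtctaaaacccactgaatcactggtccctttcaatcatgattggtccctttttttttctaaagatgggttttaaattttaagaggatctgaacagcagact
The Zfp871 window held 9 CG dinucleotides, that of Usp26 held 5, and those of Ambn and Odam held 1 each. The median over the 27025 genes with a promoter in the table was 6, and 91.74% of them held as many as Ambn and Odam or more. Among the genes compared, 10086 had a promoter entry and their median was 16. The 295 with an entry that were at least 2-fold higher in Zfp871-/- had a median of 10, and the 487 at least 2-fold lower had a median of 12. A search of both strands for CACGTG, the palindromic E-box, matched the Zfp871 window, with CACGTG present in 6.05% of all windows of this length. No match was present in the other 3 windows. Rnf17 and Dspp, which are described below with Usp26 and Ambn, had no entry.

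The libraries were alike in depth, with 19303167 counts in WT and 19974054 in Zfp871-/-, so that 1 CPM stands for 19.3 and 19.97 counts before scaling. The compared genes held 99.82% of the counts of each. Xist, the RNA of the inactive X chromosome, had 12139 counts in WT and 9152 in Zfp871-/-, against 12564 in Trp53-/- and 14475 in double-null cells. The Y-linked genes examined had 0 or 1, so no difference in sex between the libraries was seen. Ribosomal RNA genes took 0.413% of counts in WT and 0.602% in Zfp871-/-, and the mitochondrial chromosome 1.52% and 1.37%. The fibroblast label was met in both libraries, since Col1a1, Col1a2 and Col3a1, the collagen genes of connective tissue, were among the most abundant RNAs. On the deposited normalised scale, read as FPKM (per transcript length), Col1a1 stood at 2252 in WT and 2411 in Zfp871-/-. On that scale Thy1, a surface marker of fibroblasts, stood at 115 in WT and 290.4 in Zfp871-/-.

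In Zfp871-/-, 479 genes stood 2-fold or more above WT (3.58% of those compared) and 685 stood 2-fold or more below it (5.12%). The 2-fold line is a rule of size. The median log2 ratio of all compared genes was -0.01, and 90% of the genes lay between -1.02 and 0.84. The lower side reached farther: 189 genes passed 4-fold downward against 62 upward, and 70 passed 8-fold downward against 7 upward. The counting interval excluded an equal level for 1160 of the 1164 genes. Genes near the abundance limit passed more often, with 28.2% past 2-fold at a mean of up to 2 CPM and 2.72% above 100 CPM. At a minimum of 5 CPM, 214 genes were past 2-fold on the upper side and 396 on the lower. The lowest member stood at 1.00 CPM in its higher library and the nearest gene left out at 0.98. For the same genes in the double null against Trp53-/-, 149 stood at least 2-fold higher (1.11%), and 163 were lower by that much (1.22%).

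**Figure D1:**
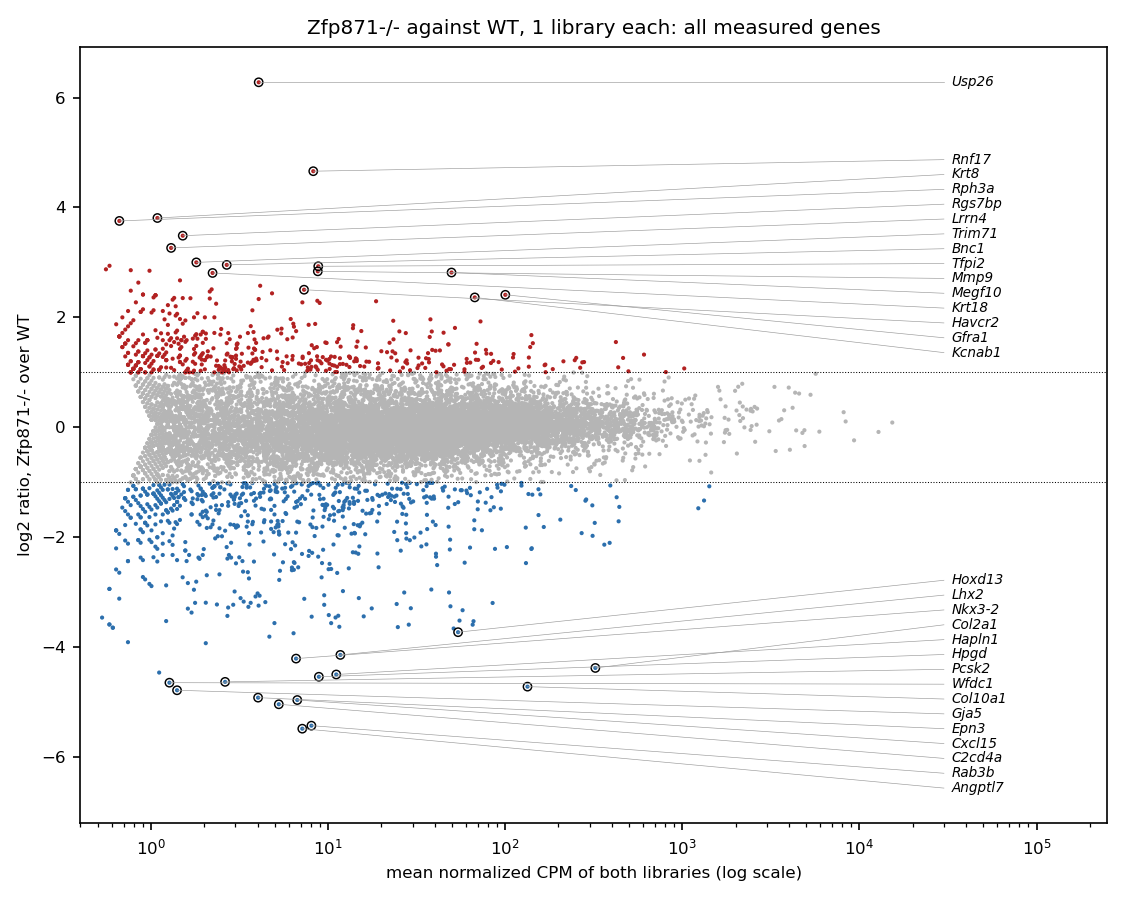
Log2 ratio of Zfp871-/- to WT (vertical axis) against the mean CPM of both libraries (horizontal log axis) for the 13377 genes compared, 1 point per gene, with lines at 2-fold. The points past 2-fold are 479 above and 685 below, and the cartilage genes Col2a1 and Col10a1 lie far below at high abundance.

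In most of these genes the WT library was the one that stood apart. Of the 1164, 723 (62.1%) had a WT level at least 2-fold away, in 1 direction, from each of the other libraries. The Zfp871-/- level was 2-fold away from each of the others in 131 (11.3%). Among genes lower in Zfp871-/-, WT stood apart in 504 of 685 (73.6%) and Zfp871-/- in 46 (6.72%), and among the higher ones in 219 of 479 (45.7%) and 85 (17.7%). Since all ratios to WT share that library, these counts describe which library is the odd one and are not separate observations of Zfp871 loss. With 1 library of each genotype, what belongs to Zfp871 loss and what to the WT culture cannot be told apart, so the level in all 4 libraries is given for the genes on which the results rest.

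**Figure D2:**
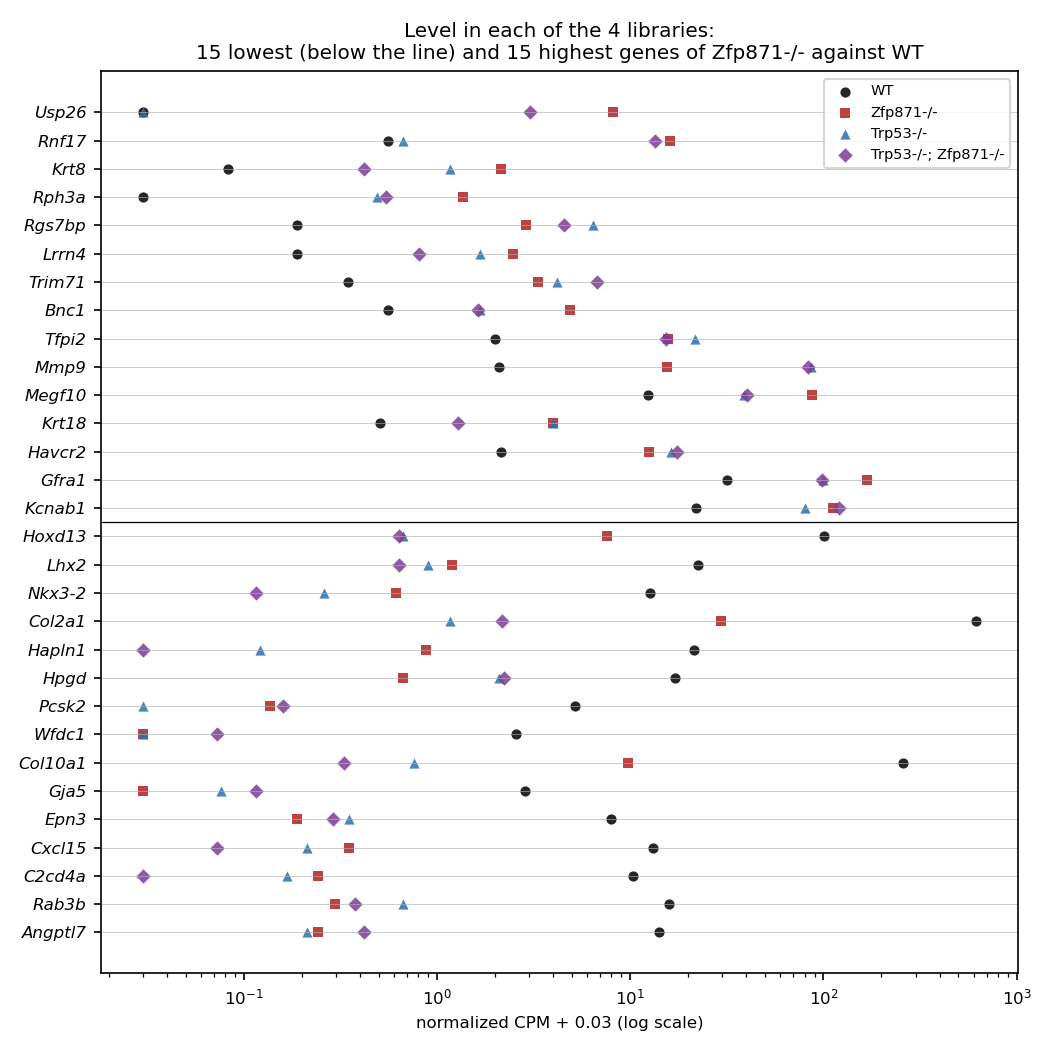
Normalised CPM (log axis, with 0.03 added so that libraries at 0 can be drawn) in each of the 4 libraries for the 15 genes highest and the 15 lowest in Zfp871-/- against WT, 1 point per library. In all 15 lowest genes and 13 of the 15 highest the WT point lies at least 2-fold away from the other 3.

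Many genes that build cartilage had far lower counts in Zfp871-/- than WT. Of 17 cartilage matrix genes measured out of 24 listed, 10 (58.8%) were at least 2-fold lower and 0 higher, against 5.12% and 3.58% of all genes. The median log2 ratio was -2.37 against -0.01 for all genes. Of the 10, 5 passed the minimum of 1 CPM through WT alone, so their direction was fixed by the rule, and without that minimum the median was -1.14. Values in parentheses after a gene, and those at which a gene is said to stand, are log2 ratios of Zfp871-/- to WT unless a scale is named. Col2a1, the main collagen of hyaline cartilage, had 616 CPM in WT and 29.6 in Zfp871-/-, against 1.14 in Trp53-/- and 2.15 in double-null cells, a log2 ratio of -4.37 (-4.50 to -4.26). Col10a1 (chromosome 10, 34389981 to 34397085 in GRCm38/mm10, ENSMUSG00000039462), the collagen of hypertrophic cartilage, had 258 CPM in WT and 9.71 in Zfp871-/-, against 0.732 in Trp53-/- and 0.301 in double-null cells, a log2 ratio of -4.71 (-4.95 to -4.52). WT was the high library for both collagens, Zfp871-/- came next, and the Trp53-null libraries were near the bottom. Hapln1, the link protein that ties aggrecan to hyaluronan, had 404 counts in WT and 16 in Zfp871-/-, against 2 in Trp53-/- and 0 in double-null cells, a log2 ratio of -4.49 (-5.48 to -3.94). Acan, the aggrecan core protein, had a log2 ratio of -3.51 (-3.77 to -3.30), and Comp, a matrix protein of cartilage and tendon, of -3.43 (-5.11 to -2.66). The collagen IX genes Col9a1 (-3.92), Col9a2 (-2.37) and Col9a3 (-1.38), whose products coat the type II fibrils, and the joint lubricant gene Prg4 (-2.5) lay on the same side. Cilp2, of the cartilage intermediate layer family, was the tenth, at -3.30. Col11a1 (-0.33), Matn2 (-0.50) and Fmod (0.21) lay within 2-fold. In all 10 genes past 2-fold WT stood apart.

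Several regulators of cartilage were lower as well, but Sox9, the master gene of chondrocytes, was not. Of 16 cartilage regulators measured, 7 (43.8%) were at least 2-fold lower and 1 (6.25%) higher, with a median of -0.68 (-1.02 without the minimum). Over all genes the shares were 5.12% and 3.58%. Of the 7, 2 passed the minimum of 1 CPM through WT alone, so the rule fixed their direction. Sox5, a partner of Sox9 on cartilage genes, had 322 counts in WT and 37 in Zfp871-/-, against 21 in Trp53-/- and 13 in double-null cells, a log2 ratio of -3.05 (-3.65 to -2.63). Sox6, the other partner, had 551 counts in WT and 49 in Zfp871-/-, against 6 in Trp53-/- and 3 in double-null cells, a log2 ratio of -3.44 (-3.94 to -3.07). Both were high in WT and low in the other 3 libraries. Sox9 itself had 798 counts in WT and 771 in Zfp871-/-, against 654 in Trp53-/- and 774 in double-null cells, a log2 ratio of -0.05 (-0.19 to 0.10). Its level was 42.3 CPM in WT and 40.9 in Zfp871-/-, and lower in both libraries without Trp53, at 29.9 and 33.3 CPM. Nkx3-2, which keeps chondrocytes immature, stood at -4.20. Trps1, a GATA-type repressor of the growth plate, stood at -2.21, Gdf5, the joint-forming BMP ligand, at -2.32, and Foxc1 at -1.92. Runx3 was a different case, with 270 counts in WT and 86 in Zfp871-/-, against 434 in Trp53-/- and 371 in double-null cells: here Zfp871-/- was the low library, at a log2 ratio of -1.63 (-2.02 to -1.29). Shox2, a homeobox gene of the proximal limb, was higher at 1.16 (0.99 to 1.34).

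Bone and tendon genes past 2-fold were fewer than cartilage genes, and the main bone factor Runx2 was level. Of 15 osteoblast genes measured, 4 (26.7%) were at least 2-fold lower and 1 (6.67%) higher, with a median of -0.05. Over all genes the shares were 5.12% and 3.58%. Of the 4, 1 passed the minimum of 1 CPM through WT alone, so the rule fixed its direction. Runx2, the main bone transcription factor, had a log2 ratio of -0.01 (-0.12 to 0.10), and Sp7, which acts after it, had 36 counts in WT and 85 in Zfp871-/-, against 50 in Trp53-/- and 99 in double-null cells, a log2 ratio of 1.20 (0.66 to 1.85). Dlx3 (-2.11) and Dlx5 (-1.02), homeobox genes of bone, Tnfsf11, the osteoclast-inducing ligand RANKL (-1.77), and Omd, osteomodulin (-1.95), were lower. Of 8 tendon genes, Scx, the tendon transcription factor, had 424 counts in WT and 70 in Zfp871-/-, against 32 in Trp53-/- and 47 in double-null cells, a log2 ratio of -2.56 (-2.98 to -2.23), and Thbs4 stood at -1.26. The other 6 lay within 2-fold, so that 25% of the tendon genes were lower. WT stood apart in both Scx and Thbs4.

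**Figure D3:**
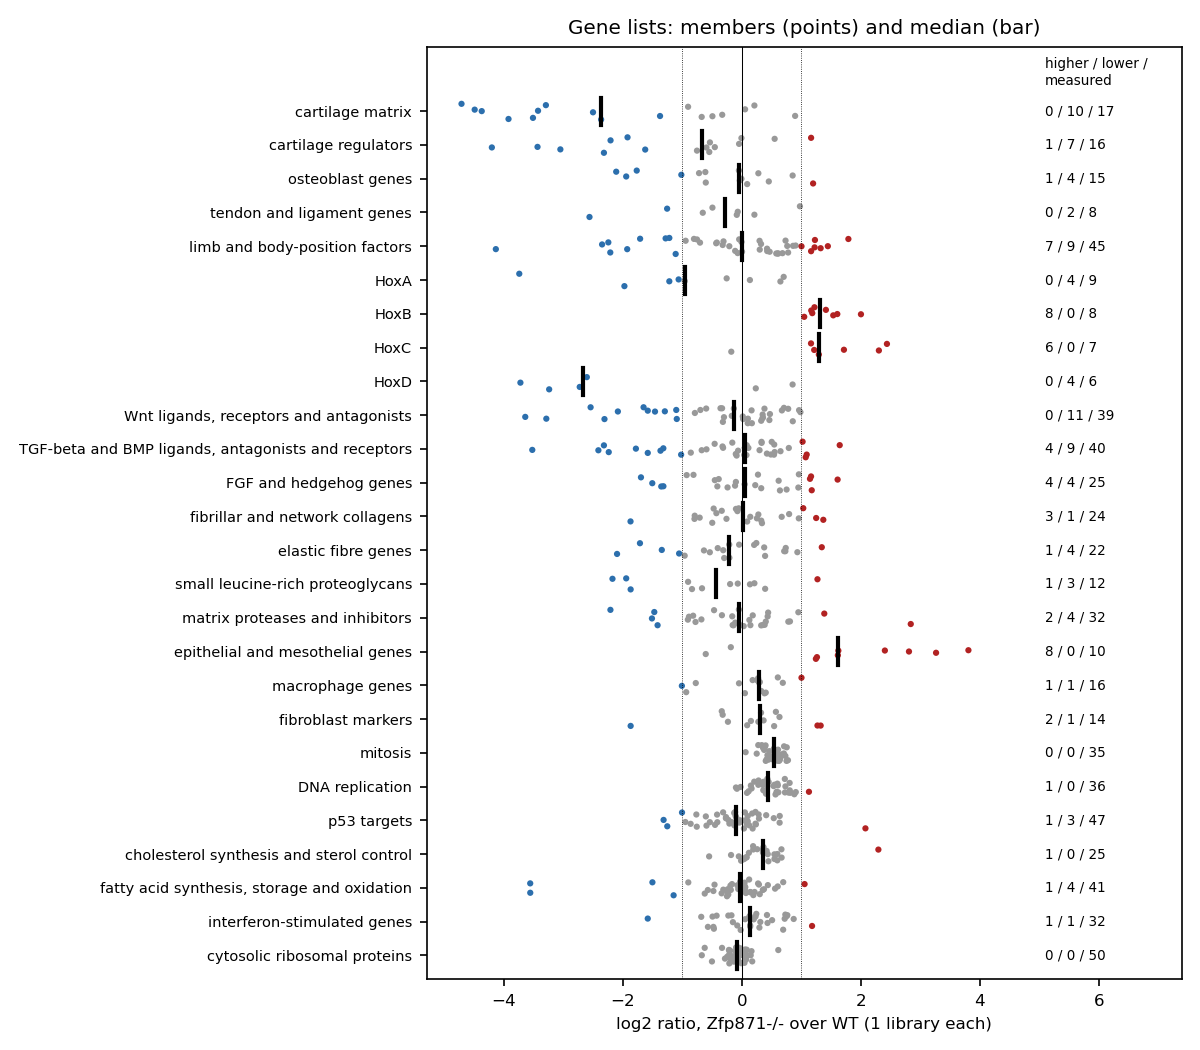
Log2 ratio of Zfp871-/- to WT for the measured members of the main gene lists described (1 row per list, 1 point per gene, with the list's median marked and lines at 2-fold). Numbers at the right count members at least 2-fold higher, at least 2-fold lower, and measured. Cartilage matrix (0 higher, 10 lower, 17 measured) and HoxB (8, 0, 8) lie on opposite sides.

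The Hox genes, whose clusters specify position along the body and the limb, divided by cluster and by position within it. All 8 measured HoxB genes and 6 of 7 HoxC genes were at least 2-fold higher in Zfp871-/-, with medians of 1.32 and 1.29. In HoxD and HoxA, 4 of 6 (66.7%) and 4 of 9 (44.4%) genes were at least 2-fold lower, and 0 higher. Among all genes, 3.58% were higher and 5.12% lower by that much. Most of the lower genes were at the end of the clusters that is used in the distal limb. Hoxd13 (-3.72, interval -4.00 to -3.50), Hoxd12 (-3.24), Hoxd11 (-2.73) and Hoxd10 (-2.61) were lower, while their neighbours Hoxd9 (0.23) and Hoxd8 (0.85) lay above 0 and within 2-fold. Likewise Hoxa13 (-3.74, interval -4.77 to -3.16) and Hoxa11 (-1.98) were lower, as were Hoxa9 (-1.06) and, at the other end of the cluster, Hoxa2 (-1.22), while Hoxa7 (0.70) lay above 0. Hoxc13 stood at -0.18 (-0.81 to 0.43), so the last HoxC gene was not lower beyond counting error.

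WT stood apart in all 8 HoxB genes, 5 of 7 HoxC genes, 4 of 6 HoxD genes and 2 of 9 HoxA genes. Hoxd13 had 101 CPM in WT and 7.53 in Zfp871-/-, against 0.64 in Trp53-/- and 0.602 in double-null cells. Hoxa13 had 12 CPM in WT and 0.796 in Zfp871-/-, against 0.412 in Trp53-/- and 0.129 in double-null cells. These distal genes were high in WT and low in the other libraries, lowest without Trp53. Hoxc4, used in the neck and upper trunk, had 1.43 CPM in WT and 8.22 in Zfp871-/-, against 7.87 in Trp53-/- and 9.42 in double-null cells, a log2 ratio of 2.44 (1.93 to 3.17). Hoxb9 had 22.7 CPM in WT and 51.6 in Zfp871-/-, against 69.9 in Trp53-/- and 58 in double-null cells, a log2 ratio of 1.18 (1.02 to 1.35). Summed over the 8 HoxB genes, the level was 45.1 CPM in WT and 111 in Zfp871-/-, against 145 in Trp53-/- and 124 in double-null cells. WT was thus low and the other 3 libraries were high, with Zfp871-/- closest to WT. In the double null against Trp53-/-, 1 of the 30 Hox genes was past 2-fold, Hoxa13 (-1.20), at 9 and 3 counts.

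**Figure D4:**
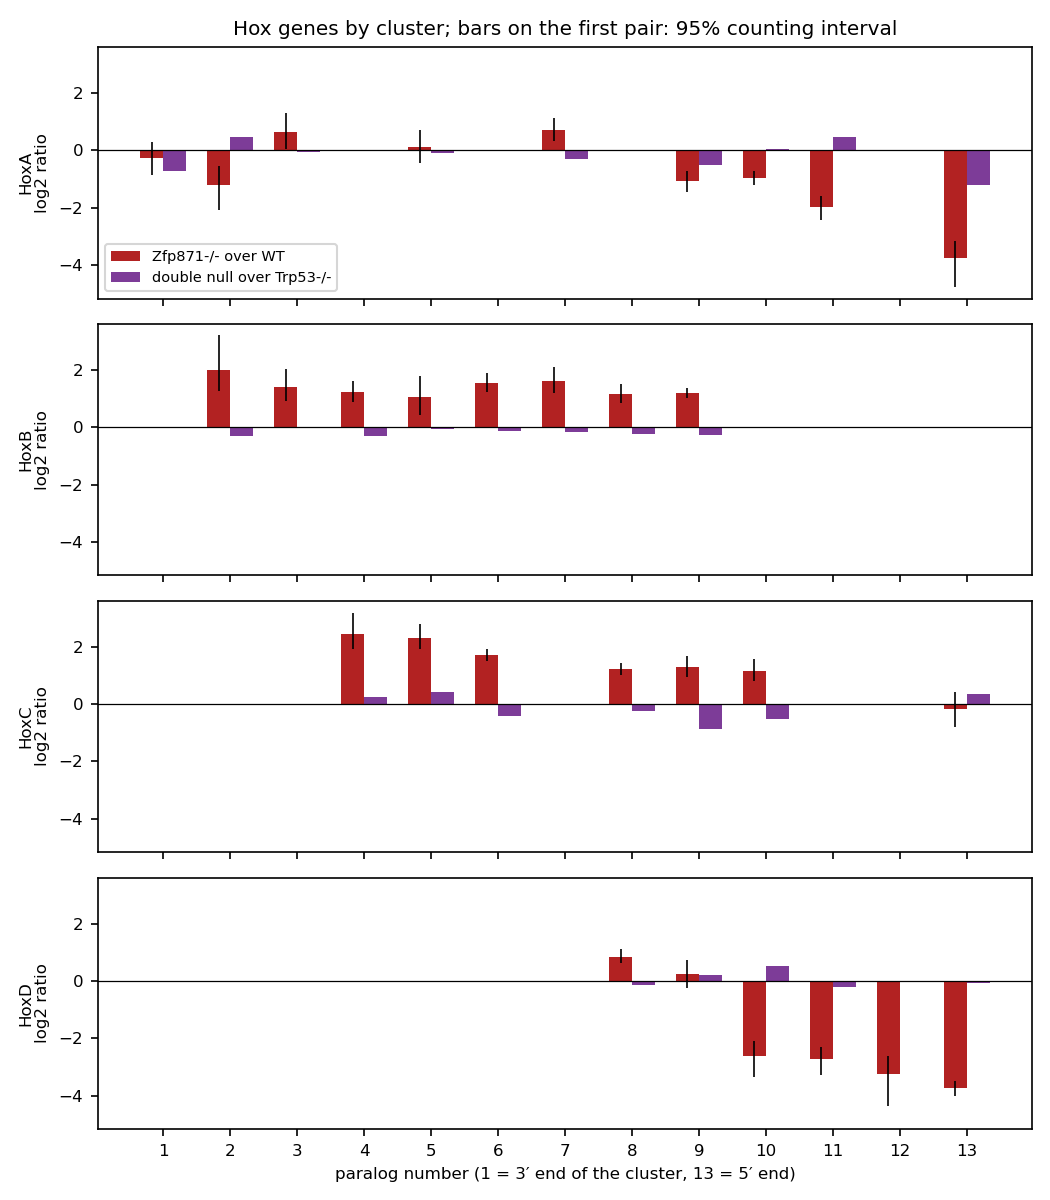
Log2 ratio for each measured Hox gene, in cluster order from anterior to posterior paralogue group, for Zfp871-/- against WT and for the double null against Trp53-/-. Black bars are 95% counting intervals of the first pair, and a gene without a bar was not among those compared. In the first pair the HoxB genes and all HoxC genes but Hoxc13 lie above 0 and Hoxd10 to Hoxd13, Hoxa9, Hoxa11 and Hoxa13 below it.

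Other regulators of position in limb and trunk pointed both ways. Of 45 measured, 7 (15.6%) were at least 2-fold higher and 9 (20%) lower, with a median of 0.00. Over all genes the shares were 3.58% and 5.12%. Among the lower ones, Lhx2, a LIM homeobox gene of the growing limb bud, had 421 counts in WT and 22 in Zfp871-/-, against 19 in Trp53-/- and 14 in double-null cells, a log2 ratio of -4.14 (-4.95 to -3.64). Tbx4 (-2.21) and Tbx5 (-1.28), which start hind limb and forelimb, and Msx1 (-1.71) and Msx2 (-2.25), targets of BMP signals, were lower, with WT apart in each. So were Six2 (-1.93), Foxd1 (-2.35) and Pax9 (-1.22). The higher ones included Tbx1 (1.32), Irx1 (1.23), Zic1 (1.22), Shox2 (1.16) and Pax1 (1.00). Prrx1, expressed throughout limb mesenchyme, lay within 2-fold at 0.32.

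Several secreted signals of the same tissues were lower in Zfp871-/-. Bmp4, a BMP ligand, had 2303 counts in WT and 198 in Zfp871-/-, against 90 in Trp53-/- and 75 in double-null cells, a log2 ratio of -3.52 (-3.75 to -3.33). Bmp2 (-2.41), Bmp3 (-1.78), Bmp5 (-2.24), Gdf6 (-1.32) and Tgfb2 (-1.37) were also lower, as were the BMP antagonists Chrd (-1.58) and Chrdl1 (-1.02). In all, 9 of 40 TGF-beta and BMP genes (22.5%) were at least 2-fold lower and 4 (10%) higher. Over all genes the shares were 5.12% and 3.58%. Of the 9, 4 passed the minimum of 1 CPM through WT alone, so the rule fixed their direction. The higher ones were led by Acvrl1, the type I receptor ALK1, with 342 counts in WT and 1072 in Zfp871-/-, against 320 in Trp53-/- and 383 in double-null cells, a log2 ratio of 1.64 (1.47 to 1.83). Inhba, which encodes the activin A subunit, had 12477 counts in WT and 26206 in Zfp871-/-, against 13280 in Trp53-/- and 13786 in double-null cells, a log2 ratio of 1.07 (1.04 to 1.10). For these genes Zfp871-/- was the high library and the other 3 were low. Bmp6 (1.09) was also among the higher members. The BMP response genes Id1 (-0.46), Id3 (-0.32) and Smad6 (-0.33) lay below 0 and within 2-fold.

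Wnt genes past 2-fold were all lower, 11 of 39 measured (28.2%, against 5.12% of all genes), with WT apart in each of the 11. Of the 11, 4 passed the minimum of 1 CPM through WT alone, so the rule fixed their direction. The list's median was -0.14. R-spondins, which amplify Wnt signals by holding receptors at the surface, were among them: Rspo2 had 1006 counts in WT and 101 in Zfp871-/-, against 91 in Trp53-/- and 91 in double-null cells, a log2 ratio of -3.29 (-3.62 to -3.02), and Rspo3 and Rspo1 stood at -2.54 and -1.65. Axin2, a feedback target of the pathway, had 180 counts in WT and 64 in Zfp871-/-, against 68 in Trp53-/- and 62 in double-null cells, a log2 ratio of -1.46 (-1.92 to -1.07), and Tcf7, a transcription factor and target, stood at -2.31. The other lower ones were the ligands Wnt10b (-2.09) and Wnt5b (-1.10), the receptor Fzd8 (-1.10) and the antagonists Sfrp2 (-1.30), Wif1 (-1.58) and Sostdc1. Sostdc1 had 23 counts in WT and 0 in Zfp871-/-, at least 7.66-fold lower against 3 counts. The members lower thus include both activators and antagonists of the pathway.

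Feedback genes of FGF and ERK signalling were among those higher. Of 25 FGF and hedgehog genes, 4 were higher and 4 lower, 16% each, against 3.58% and 5.12% of all genes. Spry4 had 106 counts in WT and 327 in Zfp871-/-, against 475 in Trp53-/- and 657 in double-null cells, a log2 ratio of 1.61 (1.31 to 1.96), and Spry1, Etv4 and the ligand Fgf2 stood at 1.14, 1.16 and 1.17. Sprouty proteins restrain receptor tyrosine kinase signals and Etv4 is a transcription factor induced by them. The lower ones were Fgf18 (-1.32), a growth plate ligand, Fgf13 (-1.70), Gas1 (-1.51), a hedgehog co-receptor, and Hhip (-1.36), a hedgehog antagonist. In the IGF list, 3 of 20 (15%) were lower and 1 (5%) higher, the latter near the share of all genes. Igfbp2 had 12635 counts in WT and 3861 in Zfp871-/-, against 1225 in Trp53-/- and 2369 in double-null cells, a log2 ratio of -1.71 (-1.76 to -1.66), and Igfbp4 stood at -1.33. Both bind IGF outside the cell, and WT was the high library for both. Pappa2, a protease that cleaves such proteins, stood at -1.09, and Igfbp6 at 1.01.

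Guidance molecules, which steer axons and also mesenchymal cells, were lower in 8 of 37 (21.6%) and higher in 2 (5.41%). Over all genes the shares were 5.12% and 3.58%. Sema3d had 905 counts in WT and 111 in Zfp871-/-, against 152 in Trp53-/- and 113 in double-null cells, a log2 ratio of -3.0 (-3.32 to -2.74), and Sema3b (-1.44), Sema3f (-1.39) and Sema3a (-1.10), secreted semaphorins like it, were lower too. The Slit receptor Robo1 had 4191 counts in WT and 755 in Zfp871-/-, against 491 in Trp53-/- and 651 in double-null cells, a log2 ratio of -2.47 (-2.58 to -2.36), with Robo2 at -1.5. Their ligand Slit3 was higher, at 1.09 (1.05 to 1.14), so ligand and receptor lay on opposite sides. The netrin receptor Unc5c (-1.85) and the ephrin gene Efna1 (-1.97) were lower, and Plxna4 (1.27) was higher.

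The general fibroblast matrix differed in a few members. Of 24 fibrillar and network collagens, 3 (12.5%) were at least 2-fold higher and 1 (4.17%) lower, with a median of 0.02. Over all genes the shares were 3.58% and 5.12%. Col14a1 (1.37), Col24a1 (1.25) and Col15a1 (1.03) were higher and Col26a1 (-1.87) lower. Elastin was lower: Eln had 11907 counts in WT and 2773 in Zfp871-/-, against 547 in Trp53-/- and 504 in double-null cells, a log2 ratio of -2.10 (-2.16 to -2.04). Its level without Trp53 was lower still. Among 22 elastic fibre genes, Ltbp4 (-1.71), Loxl4 (-1.35) and Ltbp1 (-1.06), which bind TGF-beta or cross-link the fibre, were also lower, and Mfap4 (1.34) was higher. With Eln, 4 of the 22 (18.2%) were lower and 1 (4.55%) higher. Ltbp4 had 711 counts in WT and 215 in Zfp871-/-, against 737 in Trp53-/- and 287 in double-null cells, so both Zfp871-null libraries were low and both with Zfp871 were high.

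Small proteoglycans that coat collagen fibrils lay on both sides. Lum had 2192 counts in WT and 597 in Zfp871-/-, against 392 in Trp53-/- and 217 in double-null cells, a log2 ratio of -1.87 (-2.01 to -1.74), and Ogn stood at -2.18 (-2.30 to -2.06). Dcn, decorin, a gene of the same family, had 1504 counts in WT and 3626 in Zfp871-/-, against 5502 in Trp53-/- and 2994 in double-null cells, a log2 ratio of 1.27 (1.18 to 1.36). WT was the high library for Lum and Ogn and the low one for Dcn. In all, 3 of 12 measured (25%) were lower and 1 (8.33%) higher, with a median of -0.43 (-0.29 without the minimum of 1 CPM and -0.13 at 5 CPM). Over all genes the shares were 5.12% and 3.58%. Of 20 matricellular genes, 5 (25%) were lower and 1 (5%), Vcan (1.01), which encodes the large proteoglycan versican, higher. Abi3bp (-3.33, interval -3.56 to -3.13) and Smoc1, a calcium-binding matrix protein with 1619 counts in WT and 200 in Zfp871-/-, against 8 in Trp53-/- and 16 in double-null cells and a log2 ratio of -3.0, were the lowest. Ccn3 was lower in both backgrounds, with 2289 counts in WT and 1108 in Zfp871-/-, against 1402 in Trp53-/- and 715 in double-null cells.

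Matrix proteases also pointed both ways, with 2 of 32 (6.25%) higher and 4 (12.5%) lower, against 3.58% and 5.12% of all genes. Mmp9, a gelatinase, had 39 counts in WT and 291 in Zfp871-/-, against 1893 in Trp53-/- and 1940 in double-null cells, a log2 ratio of 2.84 (2.42 to 3.42). Mmp3, stromelysin, had 4365 counts in WT and 940 in Zfp871-/-, against 957 in Trp53-/- and 770 in double-null cells, a log2 ratio of -2.21 (-2.32 to -2.11). WT was the low library for Mmp9 and the high one for Mmp3. Mmp13, the collagenase of bone and cartilage, was low in Zfp871-/- alone, with 365 counts in WT and 130 in Zfp871-/-, against 518 in Trp53-/- and 414 in double-null cells and a log2 ratio of -1.47. Mmp10 (1.39) was higher, and Timp4 (-1.51) and the serpin gene Serpine2 (-1.42) lower. Macrophages are a source of Mmp9, and the summed level of 16 macrophage markers was 245 CPM in WT and 174 in Zfp871-/-, against 1235 in Trp53-/- and 1114 in double-null cells. Csf1r, the receptor that defines macrophages, had 192 counts in WT and 230 in Zfp871-/-, against 2698 in Trp53-/- and 2437 in double-null cells, and 12 of the 16 genes were positive, with a median of 0.28, so the median and the sum differ in direction. Of the 16, Mrc1 was at least 2-fold higher in Zfp871-/- and Lgals3 lower. The part of such cells in the Mmp9 difference was not tested.

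Keratin and mesothelial genes were higher in Zfp871-/-, at low levels. Of 10 epithelial and mesothelial genes measured out of 19 listed, 8 (80%) were at least 2-fold higher and 0 lower, with a median of 1.62. Over all genes 3.58% were higher and 5.12% lower by that much. Of the 8, 5 reached 1 CPM in Zfp871-/- alone, so the rule fixed their direction, and without the minimum the median was 1.12. Krt8 and Krt18, partner keratins of simple epithelium and mesothelium, were among them. Krt8 had 1 count in WT and 40 in Zfp871-/-, against 25 in Trp53-/- and 9 in double-null cells, a log2 ratio of 3.81 (2.76 to 10.66). Krt18 had 9 counts in WT and 75 in Zfp871-/-, against 86 in Trp53-/- and 29 in double-null cells, a log2 ratio of 2.81 (2.06 to 4.24). WT was the low library for both keratins, and the double null came next. Wt1, the transcription factor of mesothelium, had 5 counts in WT and 35 in Zfp871-/-, against 42 in Trp53-/- and 9 in double-null cells, a log2 ratio of 2.40 (1.45 to 4.52). Lrrn4 (3.26), Upk1b (1.62), Upk3b (1.61), Msln (1.26) and Krt19 (1.24), of which Msln encodes mesothelin, were the other higher ones. Cdh1 and Epcam, which define epithelium, stayed below 1 CPM in both libraries. The direction was not the same without Trp53, where 6 of the 10 were at least 2-fold lower in the double null and the median was -1.19. Summed, the 10 genes stood at 69.9 CPM in WT and 93 in Zfp871-/-, against 78.3 in Trp53-/- and 66.9 in double-null cells, a sum led by Ezr, which many cell types express.

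Markers of other cell types were scattered. Of 7 endothelial genes measured, Flt1 (1.34) and Kdr (1.21), both VEGF receptors, were higher, and Erg was lower, with 406 counts in WT and 31 in Zfp871-/-, against 0 in Trp53-/- and 4 in double-null cells and a log2 ratio of -3.63 (-4.29 to -3.18). Pecam1 and Cdh5, which define endothelium, were below 1 CPM in both libraries. Of 12 neural and glial genes, Ngfr (1.55), Ncam1 (1.26) and Gap43 (1.02) were higher and Map2 (-1.56) and Stmn2 (-1.41) lower. The shares higher and lower were 28.6% and 14.3% for endothelial genes and 25% and 16.7% for neural ones. Over all genes they were 3.58% and 5.12%. Of 6 skeletal muscle genes measured out of 24 listed, Chrna1 (1.69), Tnnt2 (1.44) and Neb (1.02) were higher, while Myod1 and Myog were below 1 CPM. These 3 were 50% of those measured, and 1 passed the minimum of 1 CPM through Zfp871-/- alone. The muscle list's median was 0.68, but -0.09 without the minimum. Of 16 smooth muscle genes, Des, the muscle intermediate filament desmin, was higher (1.29). Of 14 fibroblast markers, Thy1 was higher with 6549 counts in WT and 16380 in Zfp871-/-, against 24868 in Trp53-/- and 22282 in double-null cells, a log2 ratio of 1.32 (1.28 to 1.37), along with Dcn, and Lum was lower.

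Cell division genes lay above WT by less than 2-fold, with few exceptions. All 35 mitosis genes had positive log2 ratios with a median of 0.54, from 0.06 to 0.77, and 0 were past 2-fold. Of 36 replication genes 33 were positive, with a median of 0.44, and Pola1, a DNA polymerase subunit, was past 2-fold at 1.13 (0.96 to 1.31). Summed over the 35 mitosis genes, the level was 1787 CPM in WT and 2623 in Zfp871-/-, against 3790.5 in Trp53-/- and 4086 in double-null cells. WT was the lowest and Zfp871-/- lay between it and the Trp53-null libraries. Mki67, a marker of dividing cells, had 2529 counts in WT and 3582 in Zfp871-/-, against 6456 in Trp53-/- and 6412 in double-null cells, a log2 ratio of 0.50 (0.43 to 0.58). Among 25 genes of the G1 phase, E2f2, a transcription factor of S phase entry, was higher (1.43), and so was Cdkn1c, the inhibitor p57 (1.08).

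Few p53 targets were past 2-fold, a share near that of all genes. Of 47, 3 (6.38%) were at least 2-fold lower, Perp (-1.25), Sfn (-1.32) and Sesn1 (-1.01), and 1 (2.13%) higher, Gls2 (2.08), with a median of -0.10. Sfn, which encodes the 14-3-3 sigma brake on mitotic entry, had 482 counts in WT and 192 in Zfp871-/-, against 113 in Trp53-/- and 98 in double-null cells, a log2 ratio of -1.32 (-1.57 to -1.08). Gls2, a mitochondrial glutaminase, had 12 counts in WT and 57 in Zfp871-/-, against 54 in Trp53-/- and 54 in double-null cells, with WT the low library. Summed over the 47 targets, the level was 5716 CPM in WT and 5605 in Zfp871-/-, against 1529.6 in Trp53-/- and 1498 in double-null cells. The sum was therefore close in both libraries with Trp53 and low in both without it. Mdm2 had a log2 ratio of 0.41 (0.36 to 0.46) and Cdkn1a of -0.09 (-0.13 to -0.06). Among 22 activators and brakes of p53, Zfp871 alone was past 2-fold, and only just. By median-of-ratios scaling and by TMM of both libraries alone its log2 ratio was -0.9948 and -0.9994, inside 2-fold.

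Sterol genes were mostly above WT by less than 2-fold. Of 25, 21 were positive, with a median of 0.35, and 1 was at least 2-fold higher. Without Trp53 the list's median was -0.25. Genes of fatty acid synthesis, storage and oxidation lay on both sides: of 41 measured, 20 were positive and 21 negative, with a median of -0.03, and 4 were at least 2-fold lower and 1 higher. Among the lower ones, Plin4, a lipid droplet protein, had 364 counts in WT and 29 in Zfp871-/-, against 13 in Trp53-/- and 15 in double-null cells, a log2 ratio of -3.56 (-4.25 to -3.10), and Fabp4, a fatty acid carrier of adipocytes, had 175 counts in WT and 13 in Zfp871-/-, against 20 in Trp53-/- and 21 in double-null cells, a log2 ratio of -3.56 (-4.69 to -2.94). Pparg, the adipocyte transcription factor, and Pdk4, which turns cells toward fat oxidation, stood at -1.5 (-1.84 to -1.21) and -1.15 (-1.54 to -0.80). WT was the high library for Plin4, Fabp4 and Pparg. Acacb (1.05) was the higher one. Of 12 adipocyte markers, 2 were higher and 2 lower, with a median of 0.27: Lpl, the lipoprotein lipase (1.24, interval 1.08 to 1.42), and Dlk1, a preadipocyte gene (1.18, interval 1.12 to 1.24), were higher, and Adipoq was below 1 CPM in both libraries.

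Glycolysis and hypoxia genes had a median of 0.26, with 22 of 32 positive. Slc16a3, the lactate exporter (1.41, interval 1.25 to 1.58), and Pfkfb4 (1.24) were higher, and Adm (-1.36) and Car12 (-1.02) lower. Of 28 antioxidant genes, Sod3, the extracellular superoxide dismutase, was lower, with 4379 counts in WT and 952 in Zfp871-/-, against 175 in Trp53-/- and 208 in double-null cells and a log2 ratio of -2.20 (-2.30 to -2.10). Of 26 stress response genes, Chac1, a glutathione-degrading enzyme, was lower (-1.12, interval -1.33 to -0.92). Ribosomal protein genes, 50 in number, had 0 past 2-fold and a median of -0.09. Slc7a7, which carries cationic amino acids across the membrane and was the one of 13 SLC7 genes past 2-fold, had 57 counts in WT and 281 in Zfp871-/-, against 88 in Trp53-/- and 287 in double-null cells, high in both Zfp871-null libraries.

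Genes of inflammatory signals past 2-fold were for the most part lower. Of 26 chemokines, cytokines and receptors, 8 (30.8%) were at least 2-fold lower and 2 (7.69%) higher, with a median of -0.22. Over all genes the shares were 5.12% and 3.58%. Both higher ones passed the minimum of 1 CPM through Zfp871-/- alone, and 1 lower one through WT alone, so the rule fixed their direction. Cxcl1, a chemokine that draws neutrophils, had 506 counts in WT and 57 in Zfp871-/-, against 106 in Trp53-/- and 173 in double-null cells, a log2 ratio of -3.10 (-3.57 to -2.75). Cxcl5, which acts on the same cells, had 1486 counts in WT and 359 in Zfp871-/-, against 226 in Trp53-/- and 427 in double-null cells, a log2 ratio of -2.04 (-2.22 to -1.88). Cxcl15, of the same family, stood at -4.96 (-6.82 to -4.22). Il1rl1, the receptor of IL-33, had 35842 counts in WT and 14239 in Zfp871-/-, against 10112 in Trp53-/- and 11287 in double-null cells, a log2 ratio of -1.33 (-1.36 to -1.30). WT was the high library for all 4. Il33, the ligand, was on the other side, with 11 counts in WT and 46 in Zfp871-/-, against 51 in Trp53-/- and 32 in double-null cells. Il1rn (-2.13), the IL-1 antagonist, Tslp (-2.45), Ackr3 (-2.05) and Ccl5 (-2.45) were the other lower ones. Il6 was highest in Zfp871-/-, with 9 counts in WT and 54 in Zfp871-/-, against 18 in Trp53-/- and 28 in double-null cells and a log2 ratio of 2.35 (1.56 to 3.79). The median of interferon-stimulated genes was 0.14, with Iigp1 (1.18) higher and Cmpk2 (-1.58) lower out of 32.

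Genes that make, break down or sense lipid and nucleotide mediators lay on both sides. Hpgd, which inactivates prostaglandins, had 323 counts in WT and 12 in Zfp871-/-, against 45 in Trp53-/- and 51 in double-null cells, a log2 ratio of -4.54 (-5.72 to -3.92), with WT high and Zfp871-/- the lowest of the 4. Ptger4, a PGE2 receptor (1.80), and Ptgs1, a cyclooxygenase (1.14), were higher, and Ptgfr (-1.22) lower. Enpp2, which makes lysophosphatidic acid, had 396 counts in WT and 35 in Zfp871-/-, against 75 in Trp53-/- and 32 in double-null cells, a log2 ratio of -3.43 (-4.04 to -3.0). Nt5e, the CD73 enzyme that makes adenosine, had 449 counts in WT and 91 in Zfp871-/-, against 153 in Trp53-/- and 77 in double-null cells, a log2 ratio of -2.28 (-2.64 to -1.97). Both were lower with Zfp871 loss in each background, and WT was the high library. Enpp1 (-1.25) was lower, and Enpp3 (1.41) and the adenosine receptor gene Adora2b (1.30) were higher. Clu (-1.76) and Lcn2 (-2.10), secreted proteins of the stress and acute-phase response, were lower and C2, a complement gene, higher (2.07).

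The remaining genes at the extremes had varied roles. Angptl7, a secreted angiopoietin-like protein, had 266 counts in WT and 4 in Zfp871-/-, against 4 in Trp53-/- and 9 in double-null cells and the lowest log2 ratio of the rule's 15, -5.48 (-7.94 to -4.68). Rab3b, a GTPase of vesicle release, C2cd4a, Epn3, an epsin of endocytosis, and Pcsk2, a prohormone convertase, stood at -5.42, -5.04, -4.91 and -4.63. Gja5, the gap junction protein connexin 40, and Wfdc1 had 53 and 48 counts in WT and 0 in Zfp871-/-, lower by at least 17.6-fold and at least 15.98-fold. WT was the high library in each. Among the highest, Megf10 (chromosome 18, 57133090 to 57297467 in GRCm38/mm10, ENSMUSG00000024593), an engulfment receptor, had 232 counts in WT and 1645 in Zfp871-/-, against 848 in Trp53-/- and 932 in double-null cells, a log2 ratio of 2.82 (2.63 to 3.03), with Zfp871-/- highest and WT lowest. Rph3a, a vesicle protein, had 0 counts in WT and 25 in Zfp871-/-, at least 8.35-fold higher. Tfpi2 (2.93), a protease inhibitor, Rgs7bp (3.49), Gfra1 (2.41), the GDNF receptor, Bnc1 (2.96), a zinc finger gene, Kcnab1 (2.36), Trim71 (3.0) and Havcr2 (2.5), which encodes the immune receptor TIM-3, completed the 15.

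The double null and Trp53-/- share no library with WT and Zfp871-/-, so they give a second look at the same loss. Of the 1164 genes past 2-fold, 66 (5.67%) were past 2-fold in the same direction in that pair, 21 higher and 45 lower, and 68 (5.84%) in the opposite one. The 66 were 21.2% of the genes past 2-fold in that pair. In 15 of the 21 and 23 of the 45 both counting intervals excluded an equal level. That count was not made for the 68. Over all genes compared, 1.11% were at least 2-fold higher in that pair and 1.22% lower. By the 2-fold rule alone, the same direction was about as frequent as the opposite one.

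**Figure D5:**
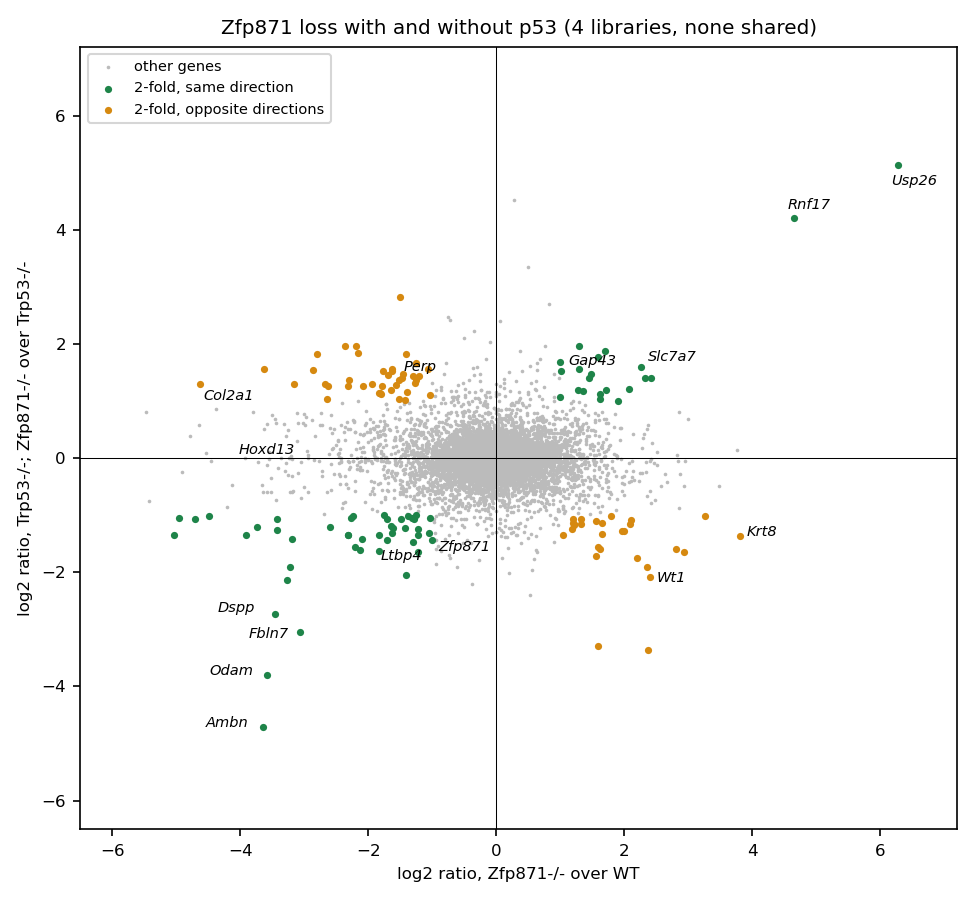
Log2 ratio of the double null to Trp53-/- (vertical axis) against that of Zfp871-/- to WT (horizontal axis) for the genes compared, 1 point per gene. Lines mark an equal level, and colours mark genes past 2-fold in both pairs, in the same or opposite directions. Rnf17 and Usp26 lie at the upper right, and 66 genes lie past 2-fold in the same direction in both pairs.

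The germline genes Usp26 and Rnf17 had the highest log2 ratios of all genes compared where Trp53 was intact, and were far higher without it too. Usp26 encodes an X-linked deubiquitinase known from testis, and Rnf17 a Tudor protein of male germ cells. Usp26 had 153 counts in Zfp871-/- and 70 in double-null cells, and 0 in both WT and Trp53-/-. Against 3 counts, it was at least 51.1-fold higher where Trp53 was intact, and without Trp53 it was at least 21.9-fold higher. Rnf17 had 10 counts in WT and 301 in Zfp871-/-, against 14 in Trp53-/- and 311 in double-null cells, log2 ratios of 4.66 (4.01 to 5.99) and 4.21 (3.62 to 5.27). For both genes the libraries with and without Zfp871 did not overlap, but how many of all genes share this separation was not counted. Across all 54532 genes, Usp26 was the 1 gene with 0 counts in both libraries with Zfp871 and at least 10 in both without it. Of 42 listed germline and meiosis genes 9 reached 1 CPM, and 3 were at least 2-fold higher, the third being Piwil2, a piRNA-binding protein, with 10 counts in WT and 30 in Zfp871-/-, against 11 in Trp53-/- and 6 in double-null cells. Piwil2 was high in Zfp871-/- alone. All 3 reached 1 CPM in Zfp871-/- alone, so the rule fixed their direction, and the count says nothing of the list as a whole; without the minimum its median was 0.30.

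The reverse pattern belonged to genes of tooth matrix, which were chosen after their values were seen. Across all 54532 genes, 3 had at least 10 counts in both libraries with Zfp871 and 0 in both without it: Ambn, Odam and Dspp. Ambn encodes the enamel protein ameloblastin, Odam a protein of the enamel-gum junction, and Dspp the main non-collagen protein of dentin. Ambn (chromosome 5, 88455991 to 88468531 in GRCm38/mm10, ENSMUSG00000029288) had 23 counts in WT and 0 in Zfp871-/-, against 49 in Trp53-/- and 0 in double-null cells, lower by at least 7.66-fold with Trp53 and at least 17.4-fold without it against 3 counts. Odam (chromosome 5, 87885029 to 87894174 in GRCm38/mm10, ENSMUSG00000009580) had 22 counts in WT and 0 in Zfp871-/-, against 25 in Trp53-/- and 0 in double-null cells, lower by at least 7.32-fold with Trp53 and at least 8.86-fold without it. Dspp (chromosome 5, 104170712 to 104180127 in GRCm38/mm10, ENSMUSG00000053268) had 20 counts in WT and 0 in Zfp871-/-, against 11 in Trp53-/- and 0 in double-null cells, lower by at least 6.66-fold with Trp53 and at least 3.90-fold without it. Both libraries with Zfp871 were thus above both without it, at no more than 49 counts. Other tooth genes were examined beside them. Amtn had 5 counts in WT and 6 in Trp53-/-, Amelx, the X-linked amelogenin gene, had 5 and 13, and both had 0 in the Zfp871-null libraries. Enam had 0 to 3 counts in all libraries, Klk4 likewise, and Mmp20 had 0 in each. Dmp1, a mineralisation gene next to Dspp, had 17 counts in WT and 15 in Zfp871-/-, against 3 in Trp53-/- and 2 in double-null cells, so it did not share the pattern. Fbln7, a fibulin found in developing teeth, had 133 counts in WT and 14 in Zfp871-/-, against 22 in Trp53-/- and 1 in double-null cells, log2 ratios of -3.07 (-4.16 to -2.45) and -3.06 (-9.91 to -1.92).

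Ambn and Odam lie close together on chromosome 5. In the 4 Mb from 87500000 to 91500000, which were also chosen after values were seen, 20 genes were compared. Of these, 6 were at least 2-fold lower in Zfp871-/-, Odam, Ambn, Cxcl5, Ppbp, Cxcl15 and Cxcl1, and Rassf6 was higher, with a median of 0.03. The 6 thus comprise tooth matrix genes and a chemokine cluster. Odam, Ambn and Cxcl15 passed the minimum of 1 CPM through WT alone, so the rule fixed their direction. Over all genes, 5.12% were at least 2-fold lower and 3.58% higher.

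Further genes passed 2-fold in a shared direction in both backgrounds, on either side. B3gnt5, a glycolipid-forming glycosyltransferase, had 82 counts in WT and 212 in Zfp871-/-, against 83 in Trp53-/- and 201 in double-null cells, and Gap43, a growth cone protein, had 317 counts in WT and 643 in Zfp871-/-, against 174 in Trp53-/- and 538 in double-null cells. Elavl2, a neuronal RNA-binding protein, had 15 counts in WT and 53 in Zfp871-/-, against 7 in Trp53-/- and 33 in double-null cells, log2 ratios of 1.70 (0.97 to 2.76) and 1.88 (0.95 to 3.57). Dpp4, a surface peptidase of fibroblast progenitors, had 5 counts in WT and 24 in Zfp871-/-, against 7 in Trp53-/- and 17 in double-null cells. In these 4 genes both Zfp871-null libraries were above both others, a pattern that was not counted over all genes. Dpp4 rests on few counts, and its interval without Trp53, -0.15 to 2.70, includes 0. On the lower side, Stk26, a kinase of cell polarity, had 326 counts in WT and 33 in Zfp871-/-, against 44 in Trp53-/- and 11 in double-null cells, log2 ratios of -3.23 (-3.87 to -2.78) and -1.90 (-3.19 to -1.11). Nell2, a secreted ligand, had 71 counts in WT and 6 in Zfp871-/-, against 36 in Trp53-/- and 13 in double-null cells, and Wscd2 had 213 counts in WT and 90 in Zfp871-/-, against 60 in Trp53-/- and 19 in double-null cells. WT was the highest library for these 3. The choice of Elavl2, Dpp4, Stk26, Nell2 and Wscd2 was made with their values in view.

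The genome around Zfp871 differed little. Within 2 Mb of the gene on chromosome 17, 74 genes were compared, of which Psmb9 (1.25), an immunoproteasome subunit, and Gpsm3 (1.19) were higher and BC051226 (-1.05) lower, with a median of -0.07. The 12 other Zfp genes there ranged from -0.47 to 0.55, and the counting interval excluded an equal level in 3. Among 39 genes of the wider zinc finger cluster, Zfp871 was the 1 gene past 2-fold, but lay just inside it under both scalings named above. The corepressors and DNA methylation genes through which KRAB zinc finger proteins act had 0 of 31 past 2-fold. Medians per chromosome lay between -0.06 (X) and 0.04 (18). Of 32 imprinted genes, 5 (15.6%) were higher and 1 (3.12%) lower, against 3.58% and 5.12% of all genes. Peg3 had 1389 counts in WT and 4014 in Zfp871-/-, against 4555 in Trp53-/- and 3899 in double-null cells, a log2 ratio of 1.53 (1.44 to 1.62). Its neighbour Usp29 stood at 2.40, and Dlk1, Cdkn1c and Dcn were named above. Mest had 1515 counts in WT and 323 in Zfp871-/-, against 290 in Trp53-/- and 476 in double-null cells, a log2 ratio of -2.22 (-2.41 to -2.05). Maternally and paternally expressed copies cannot be told apart in these counts.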

How the data were processed

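RNA was sequenced from 4 cultures of mouse embryonic fibroblasts, 1 library per genotype. Per the submitters' processing notes, the authors worked on mm10 with the tools fastp, STAR and featureCounts. No source states versions, annotation release or strand setting, so overlapping and antisense genes are uncertain. The deposited table holds raw counts per Ensembl gene. The authors' per-library tables hold normalised values with no unit in their header. They were read as FPKM because the deposited count per FPKM had a Zfp871-/- to WT ratio of 0.992 for all 18942 genes with a value in both, and they served only for the 2 levels given per transcript length.

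Symbols and coordinates came from GENCODE M21. Counts were scaled with the TMM factors of edgeR 4.0.16 (R 4.3.3), 0.978 for WT, 0.944 for Zfp871-/-, 1.04 for Trp53-/- and 1.04 for the double null. Genes with a CPM of at least 1, on total counts, in WT or Zfp871-/- were compared. Each log2 ratio used a prior count of 2. Intervals are exact Clopper-Pearson 95% intervals of the 2 counts (scipy 1.17.1), without a prior count. A gene at 0 was given a bound against 3 counts. The 2-fold rule is one of size, since 1 library per genotype allows no test. The calculation was tested on simulated data.

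Named genes were the 15 highest and 15 lowest by the interval bound nearest 0, the members of 52 gene lists past 2-fold or largest in ratio with at least 50 counts, the defining members of each list, the targeted genes with Mdm2 and Cdkn1a, and genes past 2-fold within 2 Mb of Zfp871. The members, the lists and this rule were chosen with earlier results of these data known. Alternatives were total counts, median-of-ratios factors, TMM of both libraries alone, a prior count of 0.5, no abundance filter, a minimum of 5 CPM, the 2-fold rule applied to the interval bound, and protein-coding genes only. Some genes that the rule names are not reported here.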

Additional observations from a re-analysis of the deposited data

Results flagged for a closer look

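In 7 named genes the ratios with and without Trp53 were past 2-fold in opposite directions and both counting intervals excluded an equal level. Genes such as Pcsk2 and Erg were past 2-fold in opposite directions too, but their intervals without Trp53 included an equal level. With 1 library per genotype these differences were not tested, and WT and Trp53-/- also differ in level. The difference of the log2 ratios, with Trp53 minus without it, was 5.18 for Krt8, 4.48 for Wt1, 4.40 for Krt18, 4.27 for Lrrn4 and 3.20 for Upk3b, all genes of simple epithelium or mesothelium that were higher in Zfp871-/- than in WT and lower in double-null cells than in their Trp53-/- control. Their log2 ratios without Trp53 were -1.37, -2.08, -1.59, -1.01 and -1.59, from at most 86 counts in any library. Krt8, Wt1, Krt18 and Lrrn4 were below 1 CPM in WT and passed the minimum through Zfp871-/- alone. The rule thus fixed the direction of these genes where Trp53 was intact. The difference was 3.26 for Ngfr, the low-affinity neurotrophin receptor. Ngfr had 107 counts in WT and 317 in Zfp871-/-, against 26 in Trp53-/- and 7 in double-null cells. Perp, a p53 target of desmosomes and cell death, went the other way at -2.62, with 1052 counts in WT and 439 in Zfp871-/-, against 9 in Trp53-/- and 28 in double-null cells.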

How the results depend on the processing

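Against 479 genes at least 2-fold higher and 685 lower, the abundance filter and the size rule moved the counts. Without a filter they were 2198 and 1623, at a minimum of 5 CPM 214 and 396, and with the rule applied to the interval bound 173 and 386. The share of genes past 2-fold that were higher was 41.2%, 57.5% without a filter and 30.9% at the interval bound. Total counts, both other scalings, a prior count of 0.5 and protein-coding genes alone kept both counts within 1.5 times, from 408 to 492 higher and from 623 to 752 lower. Of the list medians recomputed under these settings, 21 moved and 291 did not. Without a filter the median was -1.14 for cartilage matrix (-2.37 as reported), -1.02 for cartilage regulators (-0.68), -0.26 for HoxA (-0.96), -1.19 for HoxD (-2.67) and -0.29 for small proteoglycans (-0.43). At 5 CPM it was -3.01 for cartilage matrix and -0.13 for small proteoglycans. For skeletal muscle genes it was -0.09 without a filter and 0.68 with it. Zfp871 itself, at -1.01, was just inside 2-fold at -0.9948 by median-of-ratios scaling and -0.9994 by TMM of both libraries alone. The Wnt median was 0.10 at a minimum of 5 CPM, and the medians of matricellular genes and of fibrillar collagens were -0.01 and -0.03 by total counts. With 1 library per genotype no library could be left out. No paired analysis was possible because each genotype has 1 library and the ratios come from no test.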
